A study of Homo sapiens with 9 samples.

Results

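The urea cycle genes were taken as the 8 genes CPS1, OTC, ASS1, ASL, ARG1, ARG2, NAGS and SLC25A15, chosen by their symbols in the platform annotation and not by any measured value. Of these, 7 had a transcript cluster, the unit of signal on these arrays, among the 17687 genes with a symbol, each with 1 cluster. SLC25A15, which exchanges ornithine and citrulline across the inner mitochondrial membrane, was matched by neither symbol nor Entrez identifier and was not analysed here. The samples were HepG2 cells, an established human liver cancer line that retains much of the secretory programme of hepatocytes. They comprised 3 untreated arrays, 3 arrays of cells exposed to 200 ng/ml recombinant SPARC and 3 of cells exposed to 800 ng/ml, with RNA taken at 24 h. SPARC is a secreted glycoprotein of the extracellular matrix. All samples share the same line, and no label says that arrays of a group came from separate dishes, so every p-value refers to the spread between arrays, which may be technical. The extraction text names untreated cells and 800 ng/ml alone, whereas titles and design also give 200 ng/ml.

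The urea cycle converts toxic ammonia to urea and runs in full in periportal hepatocytes. Carbamoyl phosphate is made from ammonia and bicarbonate in mitochondria by CPS1, which works only when bound by N-acetylglutamate, the product of NAGS. OTC joins carbamoyl phosphate to ornithine, and the resulting citrulline leaves the mitochondrion for the cytosol, where ASS1 and ASL convert it to arginine through argininosuccinate. ARG1, the cytosolic liver arginase, splits arginine to urea and ornithine, whereas ARG2 is a mitochondrial isoenzyme found in many tissues outside the cycle itself. HepG2 cells are known for a deficient cycle, with little OTC and ARG1.

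No urea cycle gene differed between groups past the test at either dose or between the doses. The higher means of CPS1, ASS1 and ASL in SPARC-treated than in untreated cells rested on 1 low untreated array, and without it their ratios to untreated cells lay between 0.957 and 1.01 at both doses. ARG2 and NAGS were then the members lowest relative to untreated cells, at 0.768 and 0.817 times the untreated level at 200 ng/ml and 0.884 and 0.790 times at 800 ng/ml, again short of the test. OTC and ARG1 gave low signals on all arrays except that ARG1 was higher on 1 of the 3 arrays at 800 ng/ml.

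The arrays carried the hepatocyte markers that the label of the line implies. All 14 hepatocyte markers of the list used here had a cluster, and their mean log2 signal was 10.5 in untreated replicate 2 and between 10.7 and 10.8 on the other 8 arrays. Albumin had log2 signals of 12.30, 12.14 and 12.25 in untreated cells, 12.28, 12.36 and 12.32 with 200 ng/ml SPARC and 12.46, 12.34 and 12.35 with 800 ng/ml SPARC. Untreated replicate 2 stood apart, with Pearson correlations of 0.891 to 0.920 to other arrays across clusters, against 0.979 to 0.991 among the other 8. Astrocyte and neural markers (7 of 7 measured) were higher on 800 ng/ml replicates 2 and 3, where their mean log2 signal was 6.48 and 6.56, against 4.42 to 4.91 on the other 7 arrays. All signals below are log2 signals as deposited, differences are on the same log2 scale, and tests are limma's moderated test in 1 fit of 17687 genes with Benjamini-Hochberg adjustment, called at an adjusted p under 0.05. Signals of different genes depend on their probes, so a gene's place among all signals is given only to show how dim it is on the array, not as a level of transcript.

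Because it enters both comparisons with untreated cells, untreated replicate 2 was first described for the members alone. CPS1 lay 1.22 below the mean of untreated replicates 1 and 3 on this array, a difference of −1.22, with −1.12 for ARG2, −1.02 for ASS1 and −0.56 for ASL. NAGS, ARG1 and OTC were at −0.30, −0.04 and 0.02. Over all genes in 4 equal bins by mean signal, the median difference of this array was 0.35, 0.56, −0.50 and −0.80 from the dimmest to the brightest bin. OTC and ARG1 fell in the dimmest bin, NAGS in the second, CPS1, ASL and ARG2 in the third and ASS1 in the brightest. Each of the 7 members was below the median of its bin, with between 16.5% and 47.3% of the bin's genes lower still. The members' differences on this array lay within the range of other genes of like signal. Signals on this array were less spread, with an SD of 1.67, against at least 1.91 on the other 8. Blood and Kupffer markers had a mean log2 signal of 6.72 on this array, against at most 5.995 on the other 8. Fibroblast and stellate markers had 5.98, against at most 5.49, and endothelial markers 5.56, against at most 4.85. Cholangiocyte markers, at 7.33, lay within the 7.26 to 7.39 of the other 8. Enterocyte and kidney markers, at 4.405, lay within their 4.27 to 4.601. Perivenous hepatocyte markers were lower, at 6.42, against at least 6.84. These list means were not set against genes of like signal. The part of these markers in the members' values was not tested.

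**Figure D1:**
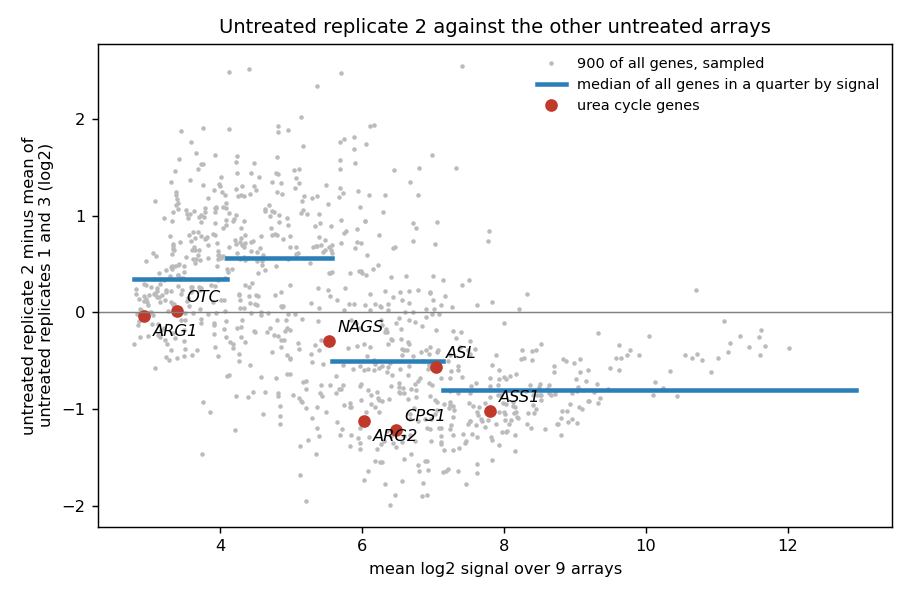
Difference of untreated replicate 2 from the mean of untreated replicates 1 and 3 (y axis, log2) against mean log2 signal over 9 arrays (x axis), for the 7 urea cycle genes (red), 900 of the 17687 genes (grey) and the median of all genes in 4 equal signal bins (blue bars). CPS1, ARG2 and ASS1 lie more than 1 log2 unit below 0, whereas OTC and ARG1 lie at 0.02 and −0.04.

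The mitochondrial entry steps came first. NAGS, which makes the obligate activator of CPS1, had log2 signals of 5.602, 5.47 and 5.95 in untreated replicates 1 to 3, then 5.62, 5.53 and 5.29 with 200 ng/ml SPARC and 5.40, 5.38 and 5.53 with 800 ng/ml SPARC. The highest value was on untreated replicate 3 and the lowest on 200 ng/ml replicate 3, and the groups overlapped in every comparison. Its difference was −0.19 ± 0.19 (SE) for 200 ng/ml over untreated and −0.24 ± 0.19 for 800 ng/ml over untreated (limma, adjusted p = 0.966 and adjusted p = 0.659). Leaving out untreated replicate 2 made these −0.29 ± 0.15 and −0.34 ± 0.15 (limma, adjusted p = 0.489 and adjusted p = 0.931). At 800 ng/ml all 3 arrays then lay below both remaining untreated arrays, a separation in either direction that 22.3% of all genes showed. NAGS thus had the lowest of its 3 group means at 800 ng/ml, and no difference passed.

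CPS1, the most abundant protein of the liver mitochondrial matrix in vivo, had log2 signals of 6.84, 5.43 and 6.46 in untreated cells. It had 6.55, 6.50 and 6.69 at 200 ng/ml and 6.64, 6.64 and 6.47 at 800 ng/ml. All 6 treated arrays lay between the lowest and highest untreated values. The differences were 0.34 ± 0.30 (SE) at both 200 and 800 ng/ml, with intervals that reached from 0.8003 to 2.01 times the untreated level at 200 ng/ml. Leaving out untreated replicate 2 turned both to −0.06 ± 0.14, and the interval at 800 ng/ml then ran from 0.766 to 1.20 times. The means of the 2 doses, 6.584 at 800 ng/ml and 6.583 at 200 ng/ml, differed by 0.0005 (limma, adjusted p = 0.9998). A CPS1 difference between the doses of more than 1.22-fold lay outside the interval of the fit without untreated replicate 2.

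OTC, which forms citrulline, had log2 signals of 3.41, 3.40 and 3.36 in untreated cells. At 200 ng/ml it had 3.67, 2.99 and 3.43, and at 800 ng/ml 3.27, 3.44 and 3.57. Both the highest and the lowest of the 9 values were at 200 ng/ml, and the 3 groups overlapped. The SD was 0.03 in untreated cells, 0.35 with 200 ng/ml SPARC and 0.15 with 800 ng/ml SPARC. With 10.7% of genes at or below its mean signal, OTC was dim on these arrays, and the table offers no detection call to separate a transcript from background. The differences over untreated were −0.03 ± 0.21 (SE) for 200 ng/ml and 0.03 ± 0.21 for 800 ng/ml, and −0.02 ± 0.19 and 0.04 ± 0.19 without untreated replicate 2.

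In the cytosol, ASS1 joins citrulline to aspartate, the step that brings the second nitrogen atom of urea into the cycle. Its log2 signals were 7.92, 6.90 and 7.91 in untreated cells, 7.89, 7.79 and 7.998 with 200 ng/ml SPARC and 8.03, 7.92 and 7.79 with 800 ng/ml SPARC. Apart from untreated replicate 2, the 8 arrays spanned only 0.24, and the 3 groups lay on top of each other. With all arrays the differences over untreated were 0.32 ± 0.26 (SE) for 200 ng/ml and 0.34 ± 0.26 for 800 ng/ml (limma, adjusted p = 0.966 and adjusted p = 0.659). The fit on the other 8 arrays gave −0.02 ± 0.12 and −0.0005 ± 0.12, with intervals from 0.817 to 1.19 times at 200 ng/ml and from 0.827 to 1.21 times at 800 ng/ml. Larger changes of ASS1 lay outside those intervals.

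ASL splits argininosuccinate to arginine and fumarate. It had log2 signals of 7.11, 6.55 and 7.12 in untreated cells, 7.20, 7.08 and 7.12 with 200 ng/ml SPARC and 7.08, 6.997 and 7.14 with 800 ng/ml SPARC. The SD over the 8 arrays without untreated replicate 2 was 0.06, the smallest of the 7 members. Its differences over untreated were 0.20 ± 0.20 (SE) for 200 ng/ml and 0.14 ± 0.20 for 800 ng/ml, and 0.02 ± 0.11 and −0.04 ± 0.11 without that array. ASL and ASS1, the cytosolic pair that makes arginine, had the smallest ranges of the 7 members over these 8 arrays, at 0.20 and 0.24.

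Arginine is consumed by the arginases, and its isoenzymes had the largest of the members' differences between the doses, so the start regions of both genes are shown. The windows run from 250 bases before to 50 bases after the RefSeq start (assembly GRCh38.p14), at chr6:131572976-131573275 on the plus strand for ARG1 and chr14:67619670-67619969 on the plus strand for ARG2. Capitals mark the TATA box letters TATAAA and the cAMP response element letters TGACGTCA, both searched on both strands and with no overlap between them.
ARG1: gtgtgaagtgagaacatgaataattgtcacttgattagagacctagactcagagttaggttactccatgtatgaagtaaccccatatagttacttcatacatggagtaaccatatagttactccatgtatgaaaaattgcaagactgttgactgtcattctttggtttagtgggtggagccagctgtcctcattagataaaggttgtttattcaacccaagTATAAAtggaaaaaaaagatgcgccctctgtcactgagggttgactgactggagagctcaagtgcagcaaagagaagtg
ARG2: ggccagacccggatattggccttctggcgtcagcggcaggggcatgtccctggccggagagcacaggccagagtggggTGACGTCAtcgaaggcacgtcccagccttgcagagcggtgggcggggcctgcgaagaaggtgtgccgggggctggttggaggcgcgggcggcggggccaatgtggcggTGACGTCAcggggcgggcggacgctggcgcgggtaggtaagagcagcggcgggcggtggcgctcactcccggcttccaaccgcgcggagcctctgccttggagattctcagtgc
The ARG1 window holds TATAAA once, 29 bases before the start, is 40.0% G and C and has 1 CpG. The ARG2 window has no TATAAA, holds TGACGTCA at 172 and 64 bases before the start, is 71.0% G and C and has 31 CpG. Of 35116 promoter windows in the table, 11.5% hold TATAAA and 1.85% hold TGACGTCA. All 8 genes had at least 1 window, 11 in all, and ARG2's was the only one of these with TGACGTCA, whereas TATAAA also occurred in that of OTC. The letters describe the genes and were not tested against any signal.

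ARG1, the arginase of the hepatic cycle, had log2 signals of 2.87, 2.80 and 2.81 in untreated cells. At 200 ng/ml it had 2.77, 2.80 and 2.82, and at 800 ng/ml 2.88, 2.89 and 3.63. Only 800 ng/ml replicate 3 was clear of the rest, since the other 8 arrays spanned 2.77 to 2.89. All 3 arrays at 800 ng/ml were nevertheless above all untreated arrays and all arrays at 200 ng/ml, though the lowest of them, 2.88, lay beside an untreated value of 2.87. Its difference at 800 ng/ml was 0.31 ± 0.22 (SE) from untreated cells and 0.33 ± 0.22 from 200 ng/ml (limma, adjusted p = 0.659 and adjusted p = 0.999). Without 800 ng/ml replicate 3 these values were 0.06 and 0.08, so the mean rests on that array. Its mean signal was reached or undercut by only 1.48% of genes, a place that depends on its probes as well as on its transcript. The astrocyte and neural markers had mean log2 signals of 6.48 and 6.56 on 800 ng/ml replicates 2 and 3, where ARG1 had 2.89 and 3.63. Blood and Kupffer cell markers, of which 7 of 7 were measured, had a mean log2 signal of 5.83 on 800 ng/ml replicate 3 and between 5.83 and 5.995 over the 8 arrays without untreated replicate 2. The part of either marker list in the ARG1 value was not tested.

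ARG2, the mitochondrial arginase, had log2 signals of 6.56, 5.21 and 6.10 in untreated cells, 5.82, 5.87 and 6.17 with 200 ng/ml SPARC and 6.14, 6.18 and 6.14 with 800 ng/ml SPARC. The untreated arrays held both the highest and the lowest value, so they enclosed all treated arrays. Its SD over untreated arrays was 0.69, that over the arrays at 200 ng/ml was 0.19 and that at 800 ng/ml 0.03. The difference over untreated was −0.01 ± 0.29 (SE) for 200 ng/ml and 0.20 ± 0.29 for 800 ng/ml (limma, adjusted p = 0.998 and adjusted p = 0.753). Dropping untreated replicate 2 gave −0.38 ± 0.16 and −0.18 ± 0.16, with adjusted p = 0.428 and adjusted p = 0.984 by limma. The first of these had an unadjusted p of 0.0438, with untreated replicate 1 above all arrays at 200 ng/ml and untreated replicate 3 below one of them. Leaving out untreated replicate 1 in place of replicate 2 gave 0.30 at 200 ng/ml and 0.50 at 800 ng/ml. ARG2 thus took either sign depending on which untreated array was used. With array weights, which gave untreated replicate 1 a weight of 10.7, ARG2 had −0.50 ± 0.12 for 200 ng/ml over untreated. It passed there (limma, adjusted p = 0.0237), as did 1971 of 17687 genes. At 800 against 200 ng/ml, a comparison whose fold change uses no untreated array, ARG2 had 0.20 ± 0.29 with all 9 arrays and 0.20 ± 0.15 in the fit without untreated replicate 2.

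**Figure D2:**
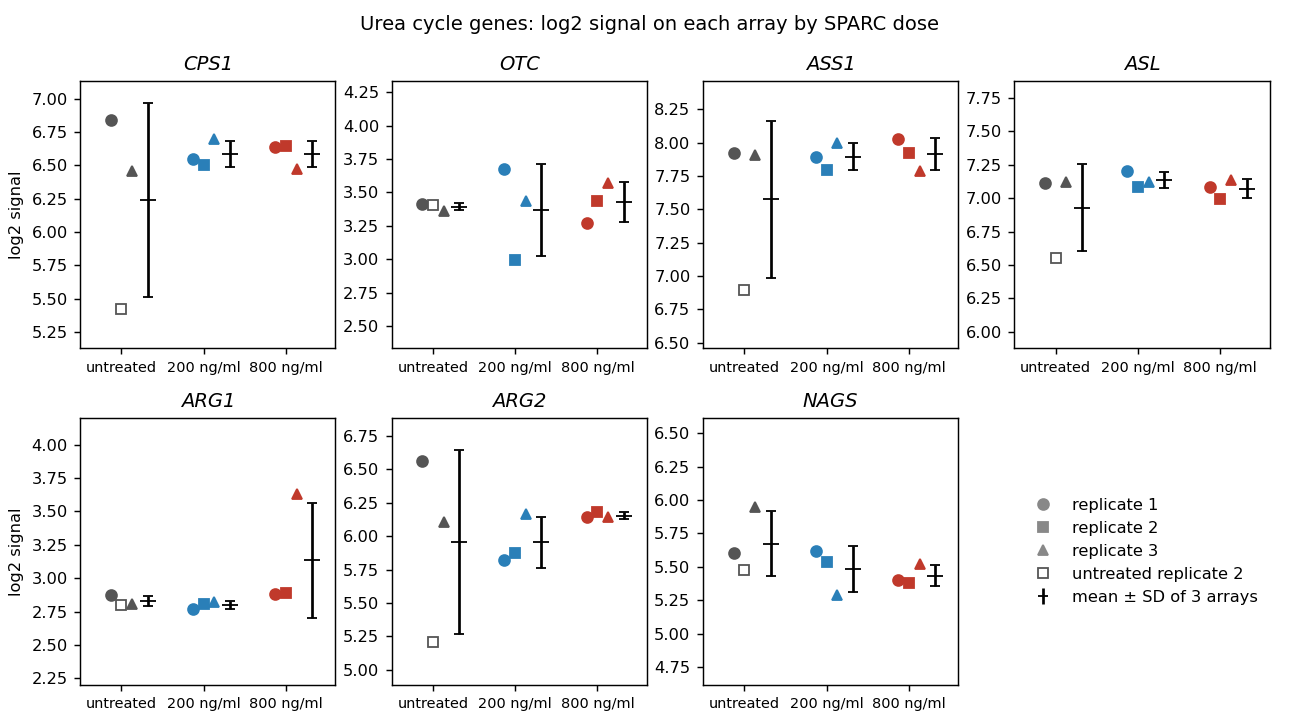
Log2 signal (y axis) of the 7 measured urea cycle genes on each array, by dose from untreated to 200 and 800 ng/ml (x axis). Symbols give the replicate number, the open square is untreated replicate 2, and bars give the mean ± SD of 3 arrays. Every panel spans 2 log2 units. The open square is the lowest point of CPS1, ASS1, ASL and ARG2, and 800 ng/ml replicate 3 is the 1 high point of ARG1.

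Counted together, at 200 ng/ml 3 of the 7 members were higher than in untreated cells and 4 lower, with a median difference of −0.01 against 0.03 over all 17687 genes. None passed (limma, adjusted p between 0.966 and 0.998), where 0% of all genes passed. At an unadjusted p under 0.05 there were 0 members and 1.78% of all genes, and 0 members had groups without overlap, against 6.98% of all genes. On the other 8 arrays 1 member was higher and 6 lower, with a median of −0.04 against −0.02 over all genes. ARG2 was the 1 member with an unadjusted p under 0.05 in that fit, where 11.3% of all genes had one, and 0 members had groups without overlap, against 31.5% of all genes. Again 0% of all genes passed after adjustment.

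At 800 ng/ml 6 of the 7 members were higher than in untreated cells and NAGS was lower, with a median difference of 0.20 against 0.04 over all genes. None passed (limma, adjusted p between 0.659 and 0.943), and 0% of all genes did. No member had an unadjusted p under 0.05, against 4.17% of all genes, and ARG1 was the 1 member whose groups did not overlap, against 11.2% of all genes. In the 8-array fit only OTC and ARG1 were higher, and the median was −0.04 against −0.01 over all genes. NAGS then had an unadjusted p of 0.0481 as the 1 such member, against 5.36% of all genes, and 0% passed. ARG1 and NAGS were the 2 members without overlap there, against 22.3% of all genes. Both doses share the untreated arrays, so a sign that recurs at both doses is not independent.

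Between the doses, 5 of the 7 members were higher at 800 than at 200 ng/ml and 2 lower, with a median difference of 0.02 against 0.01 over all genes. None passed (limma, adjusted p between 0.999 and 0.9998), as for 0% of all genes, and 0 members had an unadjusted p under 0.05, against 2.41% of all genes. ARG1 was the 1 member without overlap, against 21.9% of all genes. In the fit without untreated replicate 2 the members still gave 0 calls at an unadjusted p under 0.05, where 15.3% of all genes had one and 0% passed after adjustment. CPS1, OTC, ASS1, ASL and NAGS had differences between −0.06 and 0.06, smaller than those of ARG1 at 0.33 and ARG2 at 0.20. In that fit the intervals of all 7 members lay within 0.786 to 1.69 times, and larger differences between the doses lay outside them.

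**Figure D3:**
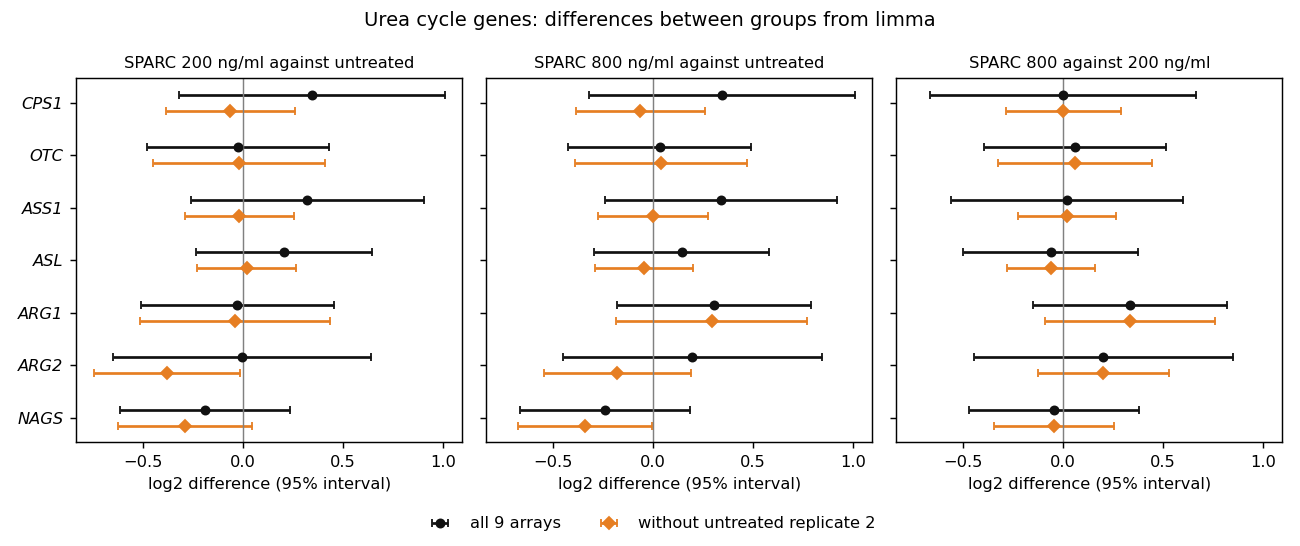
Log2 differences of the 7 urea cycle genes with 95% intervals from limma (x axis), for 3 comparisons, with all 9 arrays (black circles) and without untreated replicate 2 (orange diamonds). For CPS1, ASS1 and ASL the black points lie at 0.14 to 0.34 against untreated cells and the orange points at −0.06 to 0.02. Only ARG2 at 200 ng/ml and NAGS at 800 ng/ml have an orange interval that leaves out 0, before adjustment.

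Genes that feed, drain or regulate the cycle were taken from 3 lists. Of 27 genes for arginine, ornithine and polyamines 25 were measured, of 30 for ammonia, glutamate and aspartate 24, and of 20 regulators 16. No gene of the 3 lists passed in any comparison (limma), with or without untreated replicate 2. With all arrays the medians against untreated cells at 200 ng/ml were 0.09, 0.08 and 0.23 in the order of the lists, beside 0.03 over all genes. At 800 ng/ml they were 0.22, 0.23 and 0.19, beside 0.04 over all genes. The fit without untreated replicate 2 gave −0.04, −0.08 and −0.09 at 200 ng/ml and −0.02, 0.04 and −0.09 at 800 ng/ml, so 5 of the 6 list medians changed sign.

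Among genes of arginine and ornithine use, the smallest p-values against untreated cells at 200 ng/ml belonged to AZIN2, an antizyme inhibitor of polyamine control, at −0.66 ± 0.27 (SE), SLC7A4 at −0.62 ± 0.28 and the proline catabolic enzyme ALDH4A1 at 0.42 ± 0.24. At 800 ng/ml they belonged to SLC7A4 at −0.73 ± 0.28, PYCR3, an enzyme that makes proline in the cytosol, at −0.67 ± 0.29, and the neuronal nitric oxide synthase NOS1 at −0.61 ± 0.30. SLC7A4 had log2 signals of 3.81, 3.74 and 3.55 at 800 ng/ml, against 3.83, 5.11 and 4.34 in untreated cells, the highest of which was untreated replicate 2. Leaving that array out gave, at 200 ng/ml, −0.51 for AZIN2, −0.28 for SLC7A4 and 0.15 for ALDH4A1. For 800 ng/ml it gave −0.38 for SLC7A4, −0.30 for PYCR3 and −0.38 for NOS1, so all 6 differences were smaller without it. Between the doses PYCR3 had −0.58 ± 0.29, AZIN2 0.45 ± 0.27 and NOS1 −0.46 ± 0.30.

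PYCR3 had log2 signals of 4.99, 5.46 and 5.45 at 800 ng/ml, against 5.80, 5.99 and 5.85 at 200 ng/ml, and these groups did not overlap. Of all genes, 21.9% showed such a separation between the doses. The unadjusted p of PYCR3 between the doses was 0.0732 with all 9 arrays and 0.0027 without untreated replicate 2 (limma, adjusted p = 0.188).

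Of the ammonia, glutamate and aspartate genes, SLC14A1, a urea transporter best known from red cells and kidney, had the smallest p at 200 ng/ml with −0.86 ± 0.27 (SE) against untreated cells. Its log2 signals were 3.66, 3.39 and 3.57 at 200 ng/ml, against 4.06, 5.10 and 4.04 in untreated cells, with no overlap, as for 6.98% of all genes. The 8-array fit gave −0.51 ± 0.12 (limma, adjusted p = 0.309). AQP9, a liver channel for water, glycerol and urea, had 0.46 ± 0.20, from 3.84, 3.46 and 3.46 at 200 ng/ml against 3.08, 3.24 and 3.06 in untreated cells. Both AQP9 and SLC14A1 were in the dimmest signal bin, with 8.83% and 21.8% of genes at or below their mean signals. MDH2, the mitochondrial malate dehydrogenase, had 0.36 ± 0.22. With untreated replicate 2 left out AQP9 had 0.52 ± 0.17 (limma, adjusted p = 0.348) and MDH2 0.13 ± 0.12. SLC14A1 and AQP9 passed only with array weights, at −0.54 and 0.44 (limma, adjusted p = 0.00927 and adjusted p = 0.0295). That fit called 1971 of 17687 genes at 200 ng/ml, and 6 of the 65 measured genes of the 3 lists. Passing in it was thus not particular to these genes.

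At 800 ng/ml the smallest p-values in this list were those of MDH1, the cytosolic malate dehydrogenase, at 0.52 ± 0.25 (SE) against untreated cells, SLC14A1 at −0.56 ± 0.27 and the glutamine transporter SLC38A5 at 0.44 ± 0.25. Without untreated replicate 2 they had 0.27, −0.21 and 0.13 in the same order, each nearer to 0. MDH1 helps return the fumarate carbon of the cycle to aspartate. Its log2 signals were 5.92, 6.44 and 5.85 at 800 ng/ml, against 5.79, 5.07 and 5.81 in untreated cells, so the groups did not overlap, at 5.85 for the lowest treated and 5.81 for the highest untreated array. Such a separation was seen in 11.2% of all genes. Between the doses SLC38A4, an amino acid transporter, had 0.45 ± 0.23, SLC25A12, a mitochondrial carrier of aspartate and glutamate, 0.44 ± 0.24 and MDH1 0.44 ± 0.25. SLC38A4 was in the dimmest signal bin, with 21.6% of genes at or below its mean signal.

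Among regulators, CEBPA, a liver transcription factor needed for CPS1 expression in mouse, had 0.47 ± 0.24 (SE) at 200 ng/ml against untreated cells, ONECUT1 0.30 ± 0.24 and FOXA1 0.25 ± 0.23. CEBPA had log2 signals of 6.95, 6.95 and 6.61 at 200 ng/ml, against 6.86, 6.10 and 6.14 in untreated cells, and the groups overlapped. Dropping untreated replicate 2 left 0.34 for CEBPA, 0.04 for ONECUT1 and −0.01 for FOXA1. At 800 ng/ml the glucagon receptor GCGR had −0.51 ± 0.25, ATF4 0.36 ± 0.23 and KLF15 −0.33 ± 0.24. These were −0.29, 0.10 and −0.52 without that array. GCGR was in the dimmest signal bin, with 14.2% of genes at or below its mean signal. Between the doses GCGR had −0.33 ± 0.25, CEBPA −0.28 ± 0.24 and CREB3L3, a hepatic factor of the fasting response, 0.32 ± 0.29. Only CREB3L3 among these had doses without overlap, at 7.17, 7.14 and 7.02 for 800 ng/ml against 6.95, 6.69 and 6.73 for 200 ng/ml, a separation that 21.9% of all genes showed. Untreated replicates 1, 2 and 3 had 7.21, 6.05 and 7.27 for CREB3L3, so replicates 1 and 3 lay above both doses. Without untreated replicate 2 its differences over untreated were −0.45 at 200 ng/ml and −0.13 at 800 ng/ml (limma, adjusted p = 0.323 and adjusted p = 0.984).

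**Figure D4:**
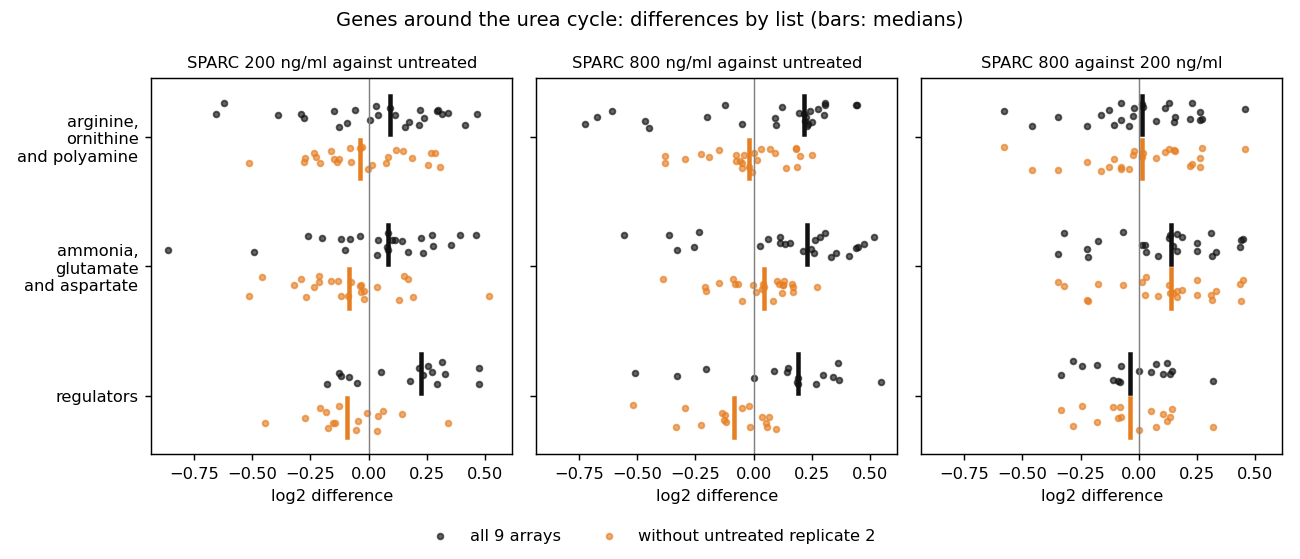
Log2 differences (x axis) of the measured genes of 3 lists around the urea cycle (rows), for 3 comparisons, with all 9 arrays (black) and without untreated replicate 2 (orange). Each point is a gene and each vertical bar a median. Against untreated cells the black medians lie between 0.08 and 0.23 and the orange medians between −0.09 and 0.04.

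The members were also set against all other genes for likeness of pattern, as Pearson r over the 8 arrays without untreated replicate 2. These arrays share 3 groups, and 17687 genes were searched, so high values occur for any gene and are a description only. For CPS1 the nearest genes were GCC1 (r = 0.97) and C14orf180 (r = 0.96). For ASS1 they were PSMG3 (0.95), a proteasome assembly factor, and NDUFA1 (0.94), a subunit of respiratory complex I, and for ASL they were ASCL5 (0.99) and APPL1 (0.98). OTC was nearest to CRIP3 (0.97) and ZNF605 (0.95), and NAGS to MTMR6 (0.96) and PDZD9 (0.95). ARG1 was nearest to KCNIP3 (0.99) and GLCCI1 (0.98), and ARG2 to PNLIP (0.95) and PLGRKT (0.95). The rank correlation (Spearman rho) was lower for KCNIP3 with ARG1 at 0.64, PLGRKT with ARG2 at 0.68 and PSMG3 with ASS1 at 0.76. For the other named genes it was 0.83 to 0.98. Apart from 800 ng/ml replicate 3, ARG1 spanned only 2.77 to 2.89, so its Pearson r rests largely on that array. No member was among the nearest genes of another. Over all 9 arrays r was −0.33 for GCC1 and −0.81 for C14orf180 with CPS1, −0.47 for ASCL5 with ASL, −0.59 for PNLIP with ARG2 and 0.15 for PSMG3 with ASS1. The other 9 named genes had r between 0.60 and 0.99 over all 9 arrays, so several likenesses depend on the array left out.

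Among the members themselves, CPS1 and ARG2 had the highest Pearson r over the 8 arrays, 0.74, and ASS1 and ARG1 the lowest, −0.50. Spearman rho was 0.73 for the first pair and 0.19 for ASS1 and ARG1, whose sign thus depended on the measure. ARG1 had its 1 high value, 3.63, on 800 ng/ml replicate 3, where ASS1 had its lowest value of the 8 arrays, 7.79. With untreated replicate 2 included, CPS1 and ASS1 had 0.97, against 0.58 without it, and CPS1 and ASL 0.90, against −0.21. The r of these pairs was thus lower without that array, and that of CPS1 and ARG2 was 0.74, against 0.91 with it. Both CPS1 and ARG2 had their highest value of the 8 arrays on untreated replicate 1, at 6.84 and 6.56. Their r without untreated replicate 1 was not computed.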

How the data were processed

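HepG2 cells were measured on 9 arrays, 3 in each of 3 groups, and groups and replicate numbers were taken from the sample titles. The authors deposited 1 value table with a row per transcript cluster, read here as log2 because of its range. R 3.0 is listed in the submitters' processing notes, and how arrays were normalized, background-corrected or filtered is not given in the sources used. The table has no detection calls, so the number of arrays and the unknown background limit every value. Gene symbols came from the platform annotation, with 17709 of 21448 clusters carrying 1 symbol, and the cluster with the highest mean was kept per gene. The 7 measured symbols equalled the RefSeq symbols of their Entrez identifiers.

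Groups were compared with limma 3.58.1 in R 4.3.3 (lmFit and eBayes) in 1 fit of 9 arrays and 17687 genes, with Benjamini-Hochberg adjustment over all genes at 0.05 and 95% intervals. The procedure was run on simulated arrays whose spread within groups was taken without untreated replicate 2. That check did not cover a fit with an outlying array. Lists were described by counts and medians only. All members were named, with the 3 smallest p-values per list and comparison and the 2 most alike genes per member. Which of these genes are given with every array's signal was chosen after their values were seen. The members and lists were chosen with earlier results of these data known. Alternatives were array weights, median centring, quantile normalization, filters on dim genes, the mean of a gene's clusters, a trended robust prior, only the arrays compared, a replicate block and leaving out each array. Equal replicate numbers were not taken to pair samples, since no label says so.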

Additional observations from a re-analysis of the deposited data

How the results depend on the processing

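In every setting run, 0 of 7 members and 0 of 65 list genes (fewer under the filters on dim genes) passed in any comparison, except with array weights, where 1 member, ARG2, and 6 list genes, AQP9 and SLC14A1 among them, passed at 200 ng/ml. That fit called 1971 of 17687 genes at 200 ng/ml and gave untreated replicate 1 a weight of 10.7 against 0.0399 for replicate 2. ARG2 had −0.50 in it (limma, adjusted p = 0.0237). Array weights without untreated replicate 2, added after the data were seen, gave −0.30 (limma, adjusted p = 0.401). That was the lowest adjusted p of ARG2 at 200 ng/ml over its other settings.

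Directions of small differences changed as follows, and where not stated the cause was not tested. With array weights, against untreated cells, CPS1 had −0.19 and −0.23 at 200 and 800 ng/ml, ASS1 −0.022, ASL −0.039 and ARG2 −0.37 at 800 ng/ml, and CEBPA −0.047 at 200 ng/ml. Between the doses CPS1 had −0.043, ASS1 −0.026 and NAGS 0.028. Array weights on 8 arrays without untreated replicate 2 gave CPS1 −0.031 and −0.076 at 200 and 800 ng/ml, and ASS1 −0.021, ASL −0.044 and ARG2 −0.18 at 800 ng/ml. They gave CPS1 −0.045, ASS1 −0.029 and NAGS 0.032 between the doses. Quantile normalization gave ARG2 0.099 and OTC 0.0049 at 200 ng/ml, and between the doses CPS1 −0.055 and ASS1 −0.045. On 8 arrays it gave CPS1 −0.0038 and −0.061 at 200 and 800 ng/ml, ASL −0.046 and ARG2 −0.17 at 800 ng/ml, and between the doses CPS1 −0.057 and ASS1 −0.046. Median centring gave ARG2 0.00084 at 200 ng/ml.

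The replicate block left the count of called members at 0 in each comparison and changed no direction. Same-numbered arrays deviated from their group means together at r between −0.25 and 0.11. The values that involve untreated arrays say little on pairing, since untreated replicate 2 pulls the untreated mean. Between the doses r was 0.0001, −0.05 and 0.03 for replicates 1, 2 and 3, which gave no hint of pairing. A replicate block on the 8 arrays gave CPS1 −0.059, ARG1 0.019, OTC 0.070 and ONECUT1 −0.033 at 200 ng/ml, and CPS1 −0.058, ASL −0.013 and ARG2 −0.17 at 800 ng/ml.

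Leaving out each array in turn gave, against untreated cells at 200 ng/ml, −0.064 to 0.64 for CPS1, −0.019 to 0.49 for ASS1, −0.38 to 0.30 for ARG2, −0.18 to 0.16 for OTC and −0.0080 to 0.40 for FOXA1. For 800 ng/ml it gave −0.063 to 0.64 for CPS1, −0.00053 to 0.51 for ASS1, −0.045 to 0.24 for ASL, −0.18 to 0.50 for ARG2 and −0.039 to 0.11 for OTC. Between the doses it gave −0.039 to 0.058 for CPS1, −0.038 to 0.080 for ASS1, −0.13 to 0.21 for OTC and −0.14 to 0.023 for NAGS. The negative ends of CPS1, ASS1, ASL and ARG2 against untreated cells came without untreated replicate 2. Filters on dim genes removed OTC and ARG1 (dimmest 25%) and also NAGS (dimmest 50%), which then have no value. An offset was planned for linear values only and was not run. With 3 arrays a group and no detection calls, the signals of OTC and ARG1 cannot be told apart from background. The same limit holds for AQP9, SLC14A1, SLC7A4, SLC38A4, NOS1 and GCGR, which also lay in the dimmest signal bin.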

Other observations

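Of the ammonia, glutamate and aspartate genes, 18 of 24 were higher at 800 than at 200 ng/ml, with a median difference of 0.14 beside 0.01 over all genes. Without untreated replicate 2 in the shared spread, 8 of these 24 genes (33.3%) had an unadjusted p under 0.05, of which 7 were higher and 1 lower, beside 15.3% of all genes, and none passed after adjustment. Of the arginine, ornithine and polyamine genes 13 were higher and 12 lower, with 12% at an unadjusted p under 0.05 in that fit, and of the regulators 8 were higher and 8 lower, with 6.25%. The astrocyte and neural markers were high on 800 ng/ml replicates 2 and 3 (6.48 and 6.56, against 4.68 on replicate 1), and their part in this list was not tested. GLUL is also an astrocyte enzyme, and the part of these markers in its values was not tested. GLUL is the glutamine synthetase of perivenous hepatocytes that captures ammonia the urea cycle leaves. It had the smallest p of the list between the doses without untreated replicate 2 and is named after its values were seen. Its log2 signals were 9.64, 9.69 and 9.69 at 800 ng/ml, against 9.39, 9.36 and 9.31 at 200 ng/ml, with no overlap, as for 21.9% of all genes. Untreated replicates 1, 2 and 3 had 9.58, 8.77 and 9.60, so untreated cells other than replicate 2 lay nearer to 800 ng/ml. The difference between the doses was 0.32 ± 0.09 (SE) in the fit without untreated replicate 2 (limma, adjusted p = 0.214). With all 9 arrays it was 0.32 ± 0.23 (limma, adjusted p = 0.999). ASNS, which makes asparagine from aspartate and glutamine, had 0.33 ± 0.12 between the doses in the first of these fits (limma, adjusted p = 0.252). RHBG, an ammonia transporter of perivenous cells, had 7.26, 7.14 and 7.15 at 800 ng/ml, against 7.36, 6.96 and 6.996 at 200 ng/ml, and the groups overlapped. The 6 perivenous hepatocyte markers, GLUL and RHBG among them, had mean log2 signals of 6.99, 6.84 and 6.91 at 800 ng/ml, against 6.85, 6.92 and 6.96 at 200 ng/ml, with overlap. CYP2E1 and CYP1A2 of that list averaged lower at 800 ng/ml, 3.39 and 5.07, against 3.84 and 5.24 at 200 ng/ml. CYP2E1 was dim, with 15.6% of genes at or below its mean signal. The rest of the list averaged higher at 800 than at 200 ng/ml: GLUL 9.67 against 9.36, RHBG 7.19 against 7.10, OAT 7.33 against 7.18 and LGR5 8.83 against 8.73.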
